A study of Mus musculus with 9 samples.

Results

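The genes described here are 10 genes of melanin synthesis and of the melanosome membrane and matrix, out of 54361 genes in the deposited table of RNA sequencing values. They are the enzymes Tyr, Tyrp1 and Dct, the matrix and membrane proteins Pmel and Mlana, the transporters Slc45a2, Oca2 and Slc24a5, the receptor Gpr143 and the ion channel Trpm1. They were found in the table by symbol, 1 entry each. They were chosen by their high levels in the libraries of the naive group in an earlier examination of these values, so their differences from that group are given as a description, without a test.

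Melanin is made inside melanosomes, organelles related to lysosomes, in melanocytes of the skin and hair follicle and in the pigment epithelium of the eye. Tyrosinase starts the pathway by oxidising tyrosine, and the related enzymes TYRP1 and DCT shape the brown to black pigment eumelanin. PMEL forms the fibrils on which the pigment is laid down, and ion transporters and channels of the melanosome membrane set the conditions in which tyrosinase works. Transcription of many of these genes in melanocytes depends on the factor MITF, which binds short DNA motifs in their promoters. Eosinophils, the cell type given in the labels, are granulocytes and do not make melanin.

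The series measured RNA of eosinophils sorted by flow cytometry from whole lungs of C57BL/6 mice, and 3 groups of 3 libraries each were analysed. Naive libraries came from mice that had received saline. The Siglec-F high (iEOS) and Siglec-F int (rEOS) libraries came from mice whose tail vein had been injected with PyMT tumour cells. PyMT cells carry the name of the polyomavirus middle T antigen, which drives mammary tumours in mice. Cells were sorted into TRIzol and the RNA of 3 to 4 mice was pooled per library, and the libraries were prepared by a protocol named Cell-seq. The labels used here give no age or sex, and they name a Siglec-F gate for the groups from tumour-injected mice but not for naive, so treatment and gate cannot be told apart in comparisons with naive. All values are normalized counts, that is, reads per gene divided by a size factor for the library.

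The libraries held 2205949 to 12495639 reads assigned to genes. Defining eosinophil markers were scarce in all groups: the summed level of 6 markers (Siglecf, Ccr3, Epx, Prg2, Prg3 and Il5ra) was 17.2 to 31.3 normalized counts in naive, 5.97 to 432 in Siglec-F high and 12.4 to 136 in Siglec-F int libraries. In the naive libraries 2 of the 6, Ccr3 and Prg3, were at 0. Siglecf, which encodes the protein of the gate, was at 4.18 to 31.3, 3.58 to 17.6 and 6.98 to 20.2 in the same order of groups, so its RNA did not separate them. Markers of leukocytes in general (Ptprc, Itgb2, Tyrobp, Coro1a and Laptm5) were present in every library, with sums of 4009 to 6901, 5509 to 8182 and 7210 to 24159 normalized counts in the same order of groups. Itgb2 was the largest part of each sum. Ptprc was at 76.8, 396 and 148 in naive libraries and at 656 to 2358 in the others, without overlap, whereas the other members overlapped. Coro1a (69.1) and Laptm5 (161) were lowest in Siglec-F high library 1. The scarcity of eosinophil markers goes against the labels in all 3 groups: library 2 of Siglec-F high (5.97) and library 1 of Siglec-F int (12.4) lay below every naive library. The libraries labelled naive held the pigment genes described below as well, and every comparison with them rests on that. In bulk RNA, fewer cells of a type and less RNA per cell cannot be told apart.

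The 10 genes made up 1.11%, 0.943% and 1.37% of all reads in naive libraries 1, 2 and 3. Their share was 0.00212%, 0.00464% and 0.0240% in Siglec-F high libraries 1, 2 and 3 and 0.00712%, 0.00675% and 0.0163% in Siglec-F int libraries 1, 2 and 3. The 95% Wilson intervals, which cover counting error only, ran from 0.930% to 0.956% for the lowest naive share and from 0.0227% to 0.0253% for the highest share in a library from tumour-injected mice. All 10 genes had reads in every naive library. From tumour-injected mice, the 105 to 2035 reads per library fell on 6 to 10 of the 10 genes.

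Each of the 10 genes was lower in every Siglec-F high library than in any naive library, and the same held for Siglec-F int. The share of all 13642 tested genes that lay below naive without overlap was 26.3% for Siglec-F high and 27.6% for Siglec-F int, and the share that lay above was 20.2% and 23.3%. Since the naive levels chose the genes, nothing is read from these counts. On the log2(value + 1) scale, the median difference of the 10 genes from naive was -7.19 in Siglec-F high and -6.84 in Siglec-F int, beside medians of -0.11 and -0.02 over all tested genes. Both comparisons share the same 3 naive libraries. Leaving out Siglec-F high library 3 moved the first median to -8.24, and leaving out Siglec-F high library 1 moved it to -6.40.

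**Figure D1:**
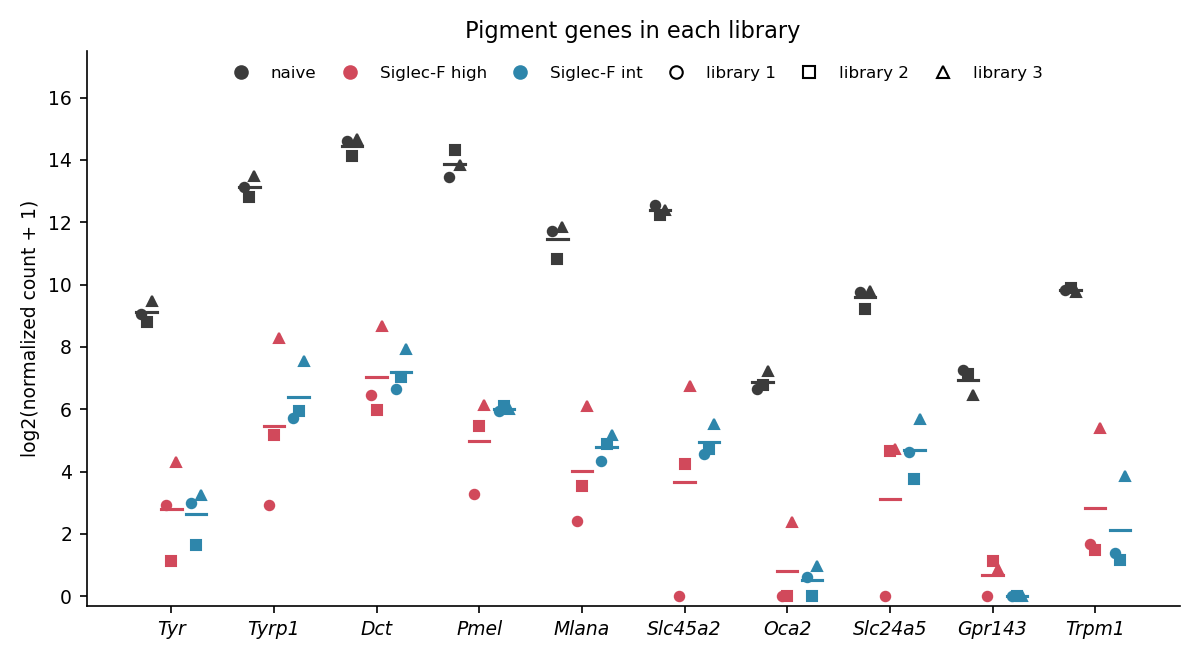
Normalized counts of the 10 pigment genes in each of the 9 libraries (symbols, vertical axis log2 of value + 1), by group and ordered by role, with horizontal bars at the group means on that scale. Every gene lies higher in the 3 naive libraries than in any of the 6 libraries from tumour-injected mice.

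Tyr encodes tyrosinase, the rate-limiting enzyme of the pathway. It lies on the minus strand of chromosome 7 (GRCm38, chr7:87424771-87493512). Tyr stood at 536, 448 and 707 normalized counts in naive libraries 1 to 3, at 6.58, 1.19 and 18.8 in Siglec-F high and at 6.98, 2.11 and 8.54 in Siglec-F int libraries 1 to 3. The group means were 564 ± 132, 8.84 ± 9.0 and 5.88 ± 3.35 normalized counts (SD, n = 3 each). In both groups from tumour-injected mice library 3 was the highest and library 2 the lowest, and the ranges of these groups overlapped.

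Tyrp1 encodes an enzyme of eumelanin synthesis that also stabilises tyrosinase. The gene lies on the plus strand of chromosome 4 (chr4:80834123-80851719). Its normalized counts were 8952, 7112 and 11344 in naive libraries, 6.58, 35.2 and 310.5 in Siglec-F high and 52.1, 60.7 and 184 in Siglec-F int. The 3 Siglec-F high libraries differed the most among themselves and enclosed the whole range of Siglec-F int. Dct encodes dopachrome tautomerase, which acts between tyrosinase and the final pigment, and lies on the minus strand of chromosome 14 (chr14:118012790-118052244). Dct stood at 24778, 17865 and 25873 normalized counts in naive libraries, 86.7, 62.6 and 409 in Siglec-F high and 100.4, 130 and 242 in Siglec-F int. Its values in the libraries from tumour-injected mice rest on 663 reads over Siglec-F high and 1259 over Siglec-F int, against 30 and 45 reads for Tyr.

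The promoters of the 3 enzyme genes are shown because MITF is known to bind the letters CATGTG, the core of a motif called the M-box, upstream of tyrosinase family genes. The 250 bases before each start site follow, from RefSeq on GRCm38.p6, 5′ to 3′ on the strand of the gene, with CATGTG or its reverse complement CACATG in capitals.
Tyr (chr7:87493513-87493762, minus strand): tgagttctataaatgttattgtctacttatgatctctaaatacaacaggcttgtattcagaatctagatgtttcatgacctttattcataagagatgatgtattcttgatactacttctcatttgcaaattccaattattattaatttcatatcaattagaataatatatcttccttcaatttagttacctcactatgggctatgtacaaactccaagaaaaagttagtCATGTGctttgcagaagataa
Tyrp1 (chr4:80833963-80834212, plus strand): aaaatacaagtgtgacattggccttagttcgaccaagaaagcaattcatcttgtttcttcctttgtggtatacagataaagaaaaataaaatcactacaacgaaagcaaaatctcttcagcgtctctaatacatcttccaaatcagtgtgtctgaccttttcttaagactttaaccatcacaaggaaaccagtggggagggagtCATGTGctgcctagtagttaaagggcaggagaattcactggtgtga
Dct (chr14:118052247-118052496, minus strand): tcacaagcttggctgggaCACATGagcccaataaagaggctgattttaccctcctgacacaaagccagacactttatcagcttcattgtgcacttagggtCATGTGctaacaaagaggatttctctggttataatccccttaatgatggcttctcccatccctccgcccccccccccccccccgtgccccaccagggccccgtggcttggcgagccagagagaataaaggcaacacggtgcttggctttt
In Tyr the motif began 21 bases before the start site and in Tyrp1 46 bases before it, and in both it read agtCATGTGct on the strand of the gene. Dct held it at 150 bases before the start on the strand of the gene and at 232 bases before it on the opposite strand.

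Of the 10 genes, 6 (Tyr, Tyrp1, Dct, Oca2, Slc24a5 and Trpm1) matched the table of promoters, with 7 windows of 300 bases (250 before the start site and 50 from it on), since Trpm1 has a window at each of 2 start sites. All 7 windows held CATGTG on at least 1 strand, as did 14.2% of the 32851 windows in the table. The longer form TCATGTG, which contains CATGTG and is counted within it, was in 5 of the 7 windows and in 3.77% of all windows. The palindrome CACGTG, which reads the same on both strands and does not overlap in letters with CATGTG, was in 1 of the 7, the second Trpm1 window, and in 7.15% of all windows. The 30 bases around the motif are shown for the first window of the other 3 genes to set its place and strand beside those of the enzymes, again with the motif in capitals and on the strand of the gene.
Slc24a5 (chr2:125068102-125068131, plus strand): aaggagactgctCACATGattcagcataag
Trpm1 (chr7:64153682-64153711, plus strand): ccaaatcctcatCATGTGcccaccccaaac
Oca2 (chr7:56239561-56239590, plus strand): ttgagcttgctaCACATGgctggaattttc
In Slc24a5 the motif lay 13 bases before the start site on the opposite strand, in Trpm1 141 bases before it on the strand of the gene, and in Oca2 186 bases before it on the opposite strand. In the second Trpm1 window it lay past the start site, at base 37, on the opposite strand. These matches describe letters only, and the deposited values hold no measure of binding. Pmel, Mlana, Slc45a2 and Gpr143 are named only.

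**Figure D2:**
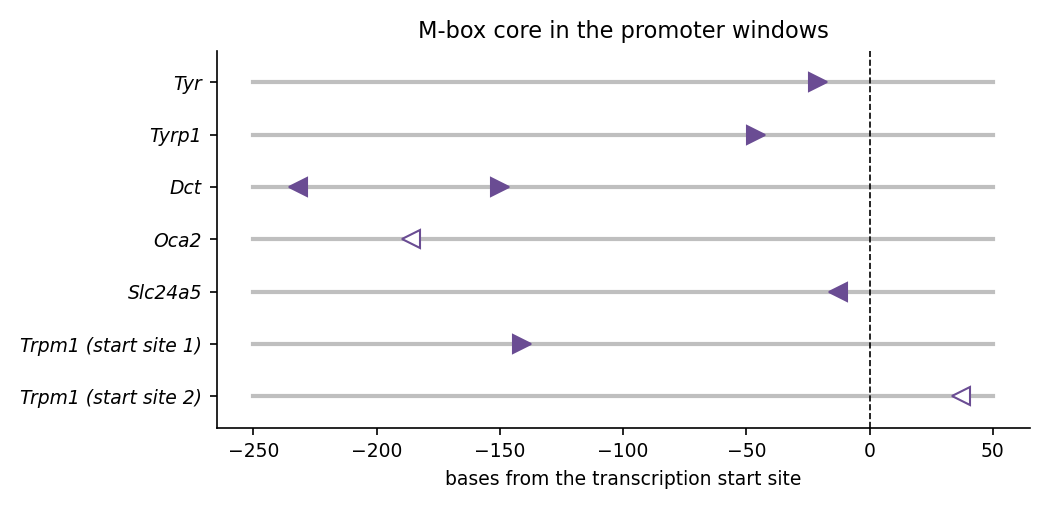
Position of the motifs relative to the start site (horizontal axis, bases) in the 7 promoter windows of 6 pigment genes, 1 line per window. Triangles point right where CATGTG reads on the strand of the gene and left where it reads on the opposite strand, and are filled where it is part of TCATGTG. The core appears in all 7 windows, from 232 bases before the start (Dct) to base 37 after it (second window of Trpm1).

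Pmel encodes the fibril protein of the early melanosome. It lies on the plus strand of chromosome 10 (chr10:128704195-128720238). Pmel stood at 11243, 20330 and 14625 normalized counts in naive libraries, at 8.77, 43.6 and 69.9 in Siglec-F high and at 60.1, 68.3 and 63.6 in Siglec-F int. The Siglec-F int libraries varied little (64.0 ± 4.08, SD, n = 3), whereas Siglec-F high library 1 lay far below the other 2 of its group. The differences of Pmel from naive were -8.90 and -7.85 on the log2(value + 1) scale.

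In read counts scaled by the size factors, naive Pmel exceeded Siglec-F high 330.3-fold (95% counting interval 283 to 388) and Siglec-F int 223-fold (204 to 245). These intervals use the reads summed over each group and leave out the spread between libraries. The exons of Pmel overlap those of Cdk2 and Dgka on the opposite strand, and whether reads were counted by strand is not given in the sources used here. Cdk2, a kinase of the cell cycle, was itself at 3348, 2767 and 2528 normalized counts in naive and 161 to 357 in the other libraries, and Dgka stood at 30.1 to 228 in all 9 libraries. Their part in the values of Pmel was not tested.

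Mlana encodes a small membrane protein that binds PMEL and is widely used as a melanocyte antigen. It lies on chromosome 19 (chr19:29697824-29708634, plus strand). Its normalized counts were 3333, 1824 and 3650 in naive libraries, 4.39, 10.7 and 67.4 in Siglec-F high and 19.3, 28.7 and 35.1 in Siglec-F int. The Siglec-F int values lay inside the range of Siglec-F high, and the means of these groups were 27.7 ± 7.93 and 27.5 ± 34.7. Of the 10 genes, Mlana had the widest relative spread in naive libraries, with a coefficient of variation of 33.2% and its lowest value in library 2.

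Slc45a2 encodes a membrane transporter that helps to keep the melanosome near neutral pH. The gene is on chromosome 15 (chr15:11000721-11029233, plus strand). Slc45a2 had 6047, 4809 and 5331 normalized counts in naive libraries, 0, 17.9 and 106 in Siglec-F high and 22.6, 25.7 and 45.6 in Siglec-F int. The Siglec-F high libraries thus ran from no read to the highest of the 6 values from tumour-injected mice. Slc24a5 encodes a potassium-dependent sodium/calcium exchanger and lies on chromosome 2 (chr2:125068124-125088677, plus strand). Slc24a5 stood at 865, 599 and 879.5 in naive libraries, 0, 24.5 and 25.6 in Siglec-F high and 23.6, 12.6 and 50.3 in Siglec-F int.

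The median of Slc24a5 over the 6 libraries from tumour-injected mice was 3.08% of its naive mean, the highest such median of the 10 genes, with a maximum of 6.44% in Siglec-F int library 3. Within Siglec-F high Slc24a5 stood apart only in library 2, at 3.13% beside 0.939% for the next gene, Gpr143. It was at 0 in library 1, and in library 3 its 3.28% lay below Trpm1 (4.56%), Oca2 (3.57%), Tyrp1 and Tyr. Its ratio to Slc45a2 was 0.143, 0.125 and 0.165 in naive libraries, 1.37 and 0.242 in Siglec-F high libraries 2 and 3 (both genes were at 0 in library 1) and 1.05, 0.492 and 1.1 in Siglec-F int. All 5 ratios from tumour-injected mice lay above the naive ones. Slc24a5 shares exon sequence with Myef2 on the opposite strand, and Myef2 was higher in the same libraries, with 65.1 to 99.8 normalized counts in naive, 165 to 304 in Siglec-F high and 124 to 208 in Siglec-F int. Its part in the values of Slc24a5 was not tested.

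Oca2 encodes the P protein, an anion channel component of the melanosome membrane, on chromosome 7 (chr7:56239760-56536518, plus strand). Per kilobase it had the lowest naive level of the 10 genes. Oca2 stood at 99.8, 109 and 149 normalized counts in naive libraries, at 0, 0 and 4.26 in Siglec-F high and at 0.54, 0 and 0.95 in Siglec-F int. These are 5 reads over Siglec-F high and 4 over Siglec-F int, so the ratios of naive to these groups are imprecise, 94.1 (39.9 to 292) and 231 (89.5 to 855).

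Gpr143 encodes a melanosomal G protein-coupled receptor that takes part in control of organelle number and size, and it is on the X chromosome (chrX:152781921-152808646, plus strand). The normalized counts of Gpr143 were 154, 141 and 86.0 in naive libraries, 0, 1.19 and 0.85 in Siglec-F high and 0 in all 3 Siglec-F int libraries. The 3 reads in Siglec-F high gave a ratio of naive to this group of 149 (50.4 to 725). Against Siglec-F int, with a count of 0, the ratio had an exact lower limit of 236. With 3 reads over the group put in place of 0, that ratio was 293. Trpm1 encodes a cation channel of melanocytes and retinal bipolar cells on chromosome 7 (chr7:64153835-64269775, plus strand). Trpm1 stood at 898, 938 and 859.5 in naive libraries, at 2.19, 1.79 and 40.9 in Siglec-F high and at 1.61, 1.26 and 13.6 in Siglec-F int. It was the most even of the 10 genes in naive libraries, with a coefficient of variation of 4.36%, and in each group from tumour-injected mice library 3 stood far above the other 2.

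Per kilobase of exon, the naive levels fell into clear steps. Pmel led with 6719 ± 2004 normalized counts per kilobase (SD, n = 3). Dct (3874 ± 736), Tyrp1 (3231 ± 750.4), Mlana (2777 ± 923) and Slc45a2 (1809 ± 208) followed, each overlapping the next in its range over libraries, and Slc24a5 was lower at 335 ± 67.7. Tyr (79.3 ± 18.6), Gpr143 (63.6 ± 17.99) and Trpm1 (60.9 ± 2.66) overlapped with one another, and Oca2 was the lowest at 30.1 ± 6.54. Pmel ranked 42 to 65 and Oca2 4026 to 5058 among 54326 genes with a length. In Siglec-F high every gene overlapped the next in this order, and in Siglec-F int only Slc45a2, at 10.5 ± 4.18, stood clear of the gene after it, Tyr, at 0.827 ± 0.472. Whether the libraries read whole transcripts or their ends is not given in the sources used here, so levels per length compare genes only approximately.

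The 6 libraries from tumour-injected mice were not alike. Siglec-F high library 3 was among the highest 2 for all 10 genes and held the highest value of the 6 for 8 of them. The genes with their highest value elsewhere were Gpr143, in Siglec-F high library 2, and Slc24a5, in Siglec-F int library 3. Siglec-F int library 3 was among the highest 2 for 8 of the 10 genes. As a percentage of the naive mean, the median of the 10 genes was 0.0645%, 0.307% and 2.79% in Siglec-F high libraries 1 to 3 and 0.446%, 0.460% and 1.13% in Siglec-F int libraries 1 to 3. The eosinophil marker sums were also highest in both of these libraries, at 432 and 136 normalized counts, of which Prg2, a granule protein, made up 379.5 and 106. The eosinophil markers' part in the residual signal was not tested.

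**Figure D3:**
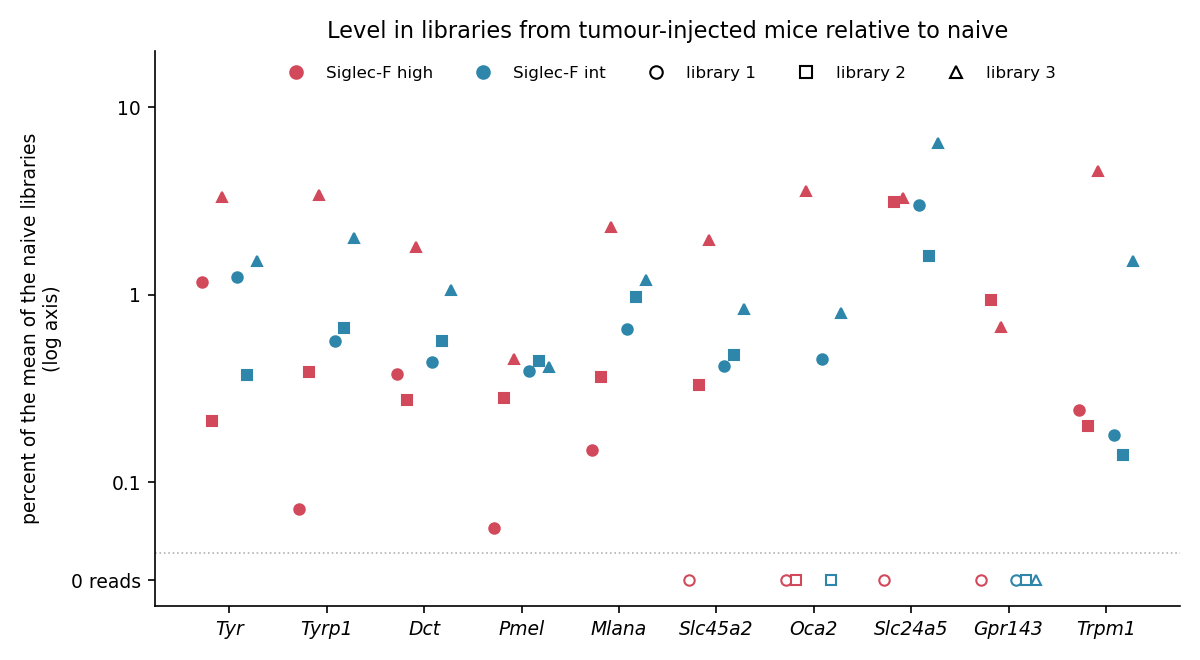
Level of each pigment gene in the 6 libraries from tumour-injected mice as a percentage of its naive mean (log axis), with values of 0 reads drawn below the dotted line. Siglec-F high library 3 is the highest for 8 of 10 genes, and Pmel stays between 0.0570% and 0.454%.

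Pmel did not stand out in library 3 of either group as Tyrp1 and Dct did. Its ratio to Tyrp1 was 1.33 and 1.24 in Siglec-F high libraries 1 and 2 and 1.15 and 1.12 in Siglec-F int libraries 1 and 2, but 0.225 and 0.345 in library 3 of each. The naive ratios were 1.26, 2.86 and 1.29. As a share of the reads of the 10 genes, Pmel was 19.8%, 37.5% and 23.0% in naive libraries, 7.62% (95% Wilson interval 3.91% to 14.3%), 21.9% and 6.65% (5.39% to 8.17%) in Siglec-F high and 20.9%, 20.7% and 9.88% (8.66% to 11.3%) in Siglec-F int. Tyrp1 went the other way, with 29.5% and 28.6% of these reads in Siglec-F high and Siglec-F int library 3 and 13.1% to 17.9% in naive libraries. Naive library 2, the shallowest, was the lowest for 6 of the 10 genes and the highest for Pmel and Trpm1.

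Siglec-F high was tested against Siglec-F int, a contrast that does not use the naive libraries as a group compared, with limma. The fit was to log2(value + 1) over all 9 libraries, with Benjamini-Hochberg adjustment over all genes tested. A gene is called at an adjusted p below 0.05. No pigment gene was called, nor was any of the 13642 genes tested (0%). At an unadjusted p below 0.05 limma gave 0 of the 10 pigment genes and 591 of all genes, and edgeR and DESeq2 on recovered reads also called 0 of the 10, with 0 and 6 calls over all genes. None of the 10 was without overlap between the groups, where 5.75% of all genes lay lower and 5.52% higher in every Siglec-F high library. Of the differences, 4 were above 0 and 6 below it, with a median of -0.47 beside -0.08 over all tested genes. Over 21 alternatives this median of the 10 ran from -1.31 to 0.33, and its sign differed in 3 of them. All these counts and the median include Gpr143 and Oca2, both above 0, which had too few reads to inform on these groups.

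The smallest adjusted p of limma among the pigment genes was 0.797, shared by Slc24a5 and Pmel. Slc24a5 differed by -1.56 ± 1.08 on the log2 scale (SE; 95% interval -3.95 to 0.83) and Pmel by -1.05 ± 0.60 (-2.38 to 0.28), both lower in Siglec-F high. The enzymes gave 0.16 ± 0.79 for Tyr (-1.59 to 1.90), -0.94 ± 1.04 for Tyrp1 (-3.25 to 1.36) and -0.16 ± 0.61 for Dct (-1.50 to 1.17). These intervals hold differences of more than 1 on the log2 scale in either direction for each enzyme, so that a difference of that size between both groups was not detectable with these libraries. Trpm1 differed by 0.71 ± 1.04 (-1.58 to 2.99). Gpr143 and Oca2 passed the filter on low values only through the naive libraries and rest on 3 reads against 0 and 5 against 4 here, so their differences carry no information on these groups. The signs rest on single libraries: without Siglec-F high library 1 Slc24a5, Tyrp1, Dct, Mlana and Slc45a2 turned positive, and without Siglec-F high library 3 Tyr, Oca2 and Trpm1 turned negative. Dct also turned positive without Siglec-F high library 2 or Siglec-F int library 3, and Tyr also turned negative without Siglec-F int library 2. Here and below, p-values measure the spread between pools of mice.

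**Figure D4:**
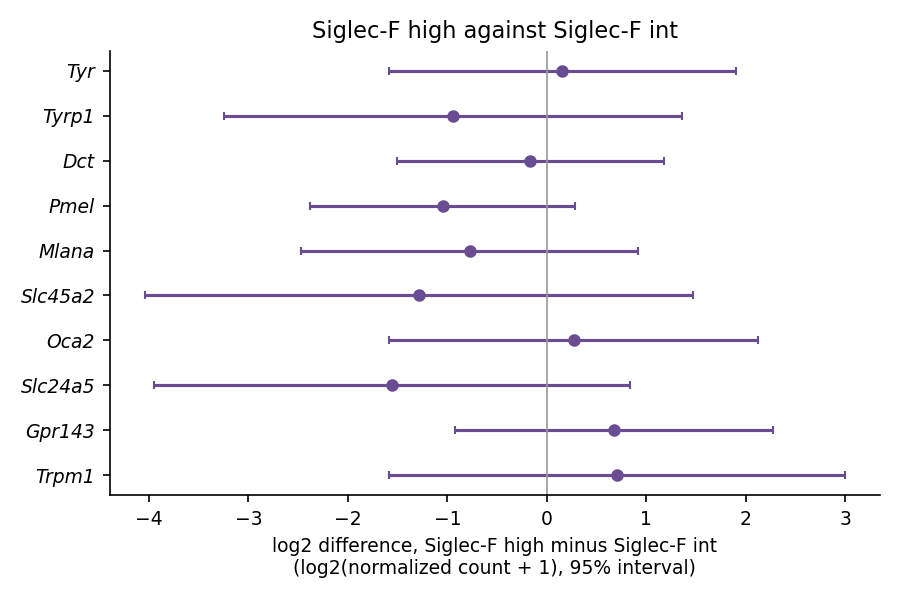
Difference of Siglec-F high from Siglec-F int for the 10 pigment genes (horizontal axis, log2 of value + 1) with 95% confidence intervals of the limma fit. All 10 intervals hold 0, and 4 of the 10 estimates are above 0. Among these 4 are Gpr143 and Oca2, which had too few reads to inform on these groups.

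The other genes of the pathway were read from a list of 52 genes, the factors and signals that control pigment cells, further melanosome cargo, and the machinery that builds and moves melanosomes. Values were present for 51 of them and 48 could be tested. The list had been drawn up with earlier results of these data known. Its calls and p-values against naive, here and below, therefore describe these values and are not independent support. Against naive, 20 were lower and 2 higher in Siglec-F high and 26 were not called, beside 16.6% lower, 14.7% higher and 31.3% in either direction over all tested genes. In Siglec-F int 16 were lower, 3 higher and 29 not called, beside 10.3%, 12.0% and 22.3% over all genes. The median of the tested list genes was -0.97 in Siglec-F high and -0.86 in Siglec-F int. Between Siglec-F high and Siglec-F int, limma called 0 of the 48, with 3 at an unadjusted p below 0.05. Rab17, Mc1r, Erbb3 and Sytl2 passed the filter on low values only through the naive libraries. Where they were called lower than naive, the filter had favoured that direction, and the counts above include them. Their differences between the Siglec-F groups rest on values near 0 and carry little information. The split over all genes depended on the scaling: Siglec-F high had 1999 higher and 2267 lower calls with the deposited size factors but 2281 and 1840 with TMM factors and 2141 and 1614 with equal library totals. Siglec-F int had 1634 and 1402, 1929 and 1100, and 2009 and 898 in the same order. The number of calls over all genes also depended on single libraries. Without Siglec-F int library 3 or 1 the Siglec-F int calls went from 3036 to 1401 or 1497, without naive library 1 to 1939 and without Siglec-F high library 1 to 5167, and the Siglec-F high calls went from 4266 to 2770 without naive library 1. In a fit of only the groups compared, the order of the groups turned, with 2509 calls in Siglec-F high and 4808 in Siglec-F int, and 16 and 24 list genes in place of 22 and 19, so neither group is ranked by its number of calls. With equal totals the median over all genes moved from -0.11 to 0.02 and from -0.02 to 0.23.

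Of the 13 tested regulators and signals, 6 were lower and 2 higher in both groups than in naive. Sox10, a factor of the neural crest that activates Mitf and Dct, stood at 8554, 12775 and 9874 normalized counts in naive libraries, 1.1, 25.7 and 31.6 in Siglec-F high and 44.0, 45.1 and 64.2 in Siglec-F int. No library from tumour-injected mice reached the naive range, and the differences were -9.71 ± 0.83 (SE; adjusted p = 0.000137, limma) and -7.64 ± 0.83 (adjusted p = 0.000499). Mc1r, the melanocortin receptor that switches melanocytes to eumelanin, went from 731 ± 105 in naive to 3.16 ± 4.02 in Siglec-F high and 5.25 ± 2.90 in Siglec-F int (SD, n = 3), differences of -7.97 and -6.96. Since Mc1r passed the filter on low values only through the naive libraries, these differences are a description. Met, the receptor of hepatocyte growth factor, had smaller differences, -3.86 and -3.84.

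Kitl and Zeb2 were the regulators that were higher. Kitl, the ligand of the receptor KIT on which melanoblasts depend, was 15.3 ± 16.1 in naive, 361 ± 139 in Siglec-F high and 174 ± 86.0 in Siglec-F int, differences of 4.86 and 3.72 (limma adjusted p = 0.00117 and 0.00505). Without library 3 of both Siglec-F groups the Kitl call in Siglec-F int was lost (limma adjusted p = 0.0510). Zeb2, a transcriptional repressor, differed by 1.34 and 1.40. Its calls were lost when single libraries were left out, naive library 1 for both groups, Siglec-F high library 3 for Siglec-F high and any 1 of the Siglec-F int libraries for Siglec-F int. In Siglec-F high the Zeb2 call was also lost when only the groups compared were fitted. Of 21 alternatives, 17 kept the Zeb2 call in Siglec-F high and 16 in Siglec-F int. Mitf was added after its values had been seen. It stood at 199.6, 193 and 352 normalized counts in naive libraries, 95.4, 32.8 and 35.0 in Siglec-F high and 54.8, 51.4 and 52.8 in Siglec-F int. Its differences from naive were smaller than those of each of the 10 pigment genes, -2.29 ± 0.47 (limma adjusted p = 0.00662) and -2.15 ± 0.47 (0.0102), and the Siglec-F int call was lost without library 3 of both Siglec-F groups (adjusted p = 0.0617).

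Among 9 further cargo proteins, 3 were lower in each group, and in Siglec-F int 1 was higher. Gpnmb, a relative of Pmel that macrophages also express, was 14397 ± 3136 in naive, 526 ± 224 in Siglec-F high and 1037 ± 423 in Siglec-F int, differences of -4.84 and -3.85. Bace2, a protease that cuts PMEL, differed by -5.96 and -6.21. Cd63, a tetraspanin of lysosomes and melanosomes present in most cells, differed by only -1.55 and -1.43. Its call was lost in both groups without naive library 2 or 3, with equal library totals, with no filter on low values and by edgeR. In Siglec-F high it was also lost when only the groups compared were fitted, and in Siglec-F int without naive library 1 or any 1 of the Siglec-F int libraries and with TMM factors or quantile normalization. Of 21 alternatives, 14 kept the Cd63 call in Siglec-F high and 9 in Siglec-F int. Slc7a11, a cystine transporter needed for the red to yellow pigment, was the higher one in Siglec-F int, by 1.88. Its call was lost without any 1 of the naive or Siglec-F int libraries or Siglec-F high library 3, and without the filter on low values. In all, 12 of 21 alternatives kept it. In Siglec-F high Slc7a11 differed by 1.60 (limma adjusted p = 0.0563), and it was called there with a pseudocount of 5, with the 3 other scalings, without Siglec-F high library 2, and by edgeR and DESeq2 (adjusted p = 0.0229 and 0.00342).

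Of 26 tested genes of melanosome biogenesis and transport, 11 were lower in Siglec-F high and 7 in Siglec-F int, and none was called higher by limma. Rab38, a small GTPase that delivers tyrosinase and TYRP1 to the melanosome, was at 1492 ± 273 in naive, 15.7 ± 10.4 in Siglec-F high and 12.3 ± 3.88 in Siglec-F int, differences of -6.64 and -6.84. Mlph, the adaptor that links RAB27A to myosin Va, differed by -6.15 and -6.32. Rab17, a GTPase of melanosome transfer, was at 266 ± 69.7, 0.483 ± 0.437 and 3.37 ± 2.76 normalized counts, differences of -7.51 and -6.18. Since Rab17 passed the filter on low values only through the naive libraries, its differences from naive are a description. Without library 3 of both Siglec-F groups, 12 rather than 19 list genes were called in Siglec-F int.

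**Figure D5:**
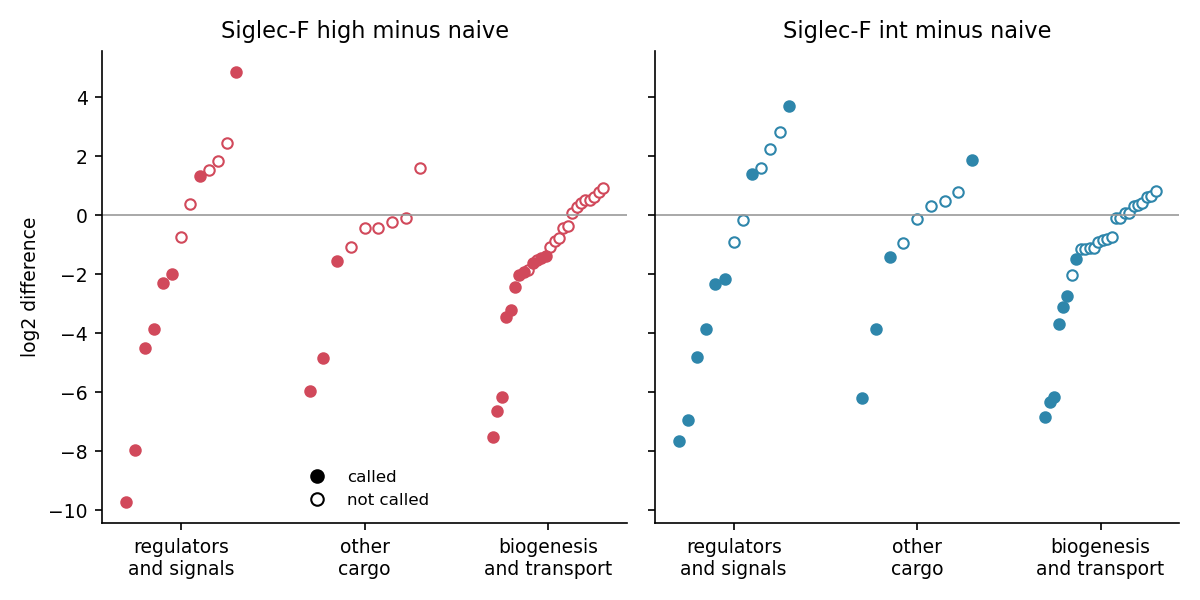
Log2 differences from naive of the 48 tested genes of the pathway list by role, in Siglec-F high (left) and Siglec-F int (right), with called genes filled. The lowest points are Sox10 at -9.71 and -7.64, and Kitl at 4.86 and 3.72 is the highest.

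Levels of genes that define other cells were set beside the pigment genes. Of 6 markers of the retinal pigment epithelium 4 had reads in naive libraries, with sums of 9.17 to 44.3 normalized counts, and Rpe65 was at 0 in all 9 libraries. Markers of retinal ON bipolar cells, the other cells known for Trpm1, summed to 0 to 3.41 over all libraries with Grm6 at 0 throughout. Schwann cell markers, which share Sox10 with melanocytes, summed to 613 to 789 in naive, 112 to 291 in Siglec-F high and 191 to 231 in Siglec-F int libraries. Most of the naive sum was Mbp, at 516 to 693 against 46.1 to 133 in the other libraries. Ncmap went the other way, from 0.84 to 6.88 in naive to 0, 165 and 127 in Siglec-F high and 43.0 to 111 in Siglec-F int. Keratinocyte markers summed to 20.8 to 24.2, 28.5 to 40.1 and 14.8 to 49.4, and those of mammary and other simple epithelia to 353 to 685, 381 to 748 and 302 to 674. Members of the latter list moved in opposite directions: Krt8 was at 209 to 380.3 in naive and 26.3 to 193 in the other libraries, and Cdh1 at 52.8 to 112 and 109 to 629.6. The part of these cells in the values of the pigment genes was not tested.

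The genes whose levels followed the pigment genes most closely were found by the root mean square difference between the log2 profile of each gene, centred on its own mean, and the median profile of the 10 genes over the 9 libraries. The pigment genes themselves lay between 0.32 (Mlana) and 1.27 (Slc24a5) from that profile. The nearest of the other genes were Zfp575 (0.34), Syt9 (0.39), Gm38226 (0.44), Gm11127 (0.48), Car6 (0.50), Scn8a (0.58), Mc1r (0.61) and Rapgef3os2 (0.62). Car6, a secreted carbonic anhydrase, stood at 6047, 2368 and 5569.6 normalized counts in naive libraries and 4.39 to 83.6 in the others. Like most of the 10 genes, it was highest in library 3 of both groups from tumour-injected mice. The likeness rests mainly on the step between naive and the other libraries, which the choice of the 10 genes shares.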

How the data were processed

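RNA sequencing libraries of sorted mouse lung cells were analysed, 3 per group. The submitters' processing notes name TopHat2 2.1.0, HTSeq, DESeq2 1.10.0 and the build GRCm38. As the steps of the columns show, each deposited signal value equals a gene's read count divided by the size factor of its library. Whole reads were recovered from the steps of each column, for 100% of values up to 2000 reads within 0.05 read, at 0.316 to 2.60 signal per read. They gave the depth. Of 54670 entries, 63 with names turned into dates (0.219% of the total), 116 exact duplicates and 130 repeats of a name with its values were left out. GENCODE M21 gave positions and exon lengths.

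Genes with a mean of at least 5 were tested, 13642 in all. All 10 pigment genes passed this filter, and 8 of them also had a mean of at least 5 over the 6 other libraries. limma 3.58.1 in R 4.3.3 was fitted to log2(value + 1) with a variance trend over all 9 libraries, two-sided. It was also run on simulated data with the same spread beyond counting error for every gene. That setting does not cover the wider spread of most pigment genes in Siglec-F high. edgeR 4.0.16 and DESeq2 1.42.0 on recovered reads, other pseudocounts, filters and scalings, a replicate block and fits without single libraries were the alternatives. Read ratios have exact intervals. The pigment genes, gene lists and alternatives were chosen with earlier results of these data known. The text names all 10 pigment genes, up to 3 called genes per direction and role of the pathway list with the smallest adjusted p, and the 8 nearest profiles. Of the 52 genes of the pathway list, 1 is not analysed here, and of the 51 with values 48 were tested.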

Additional observations from a re-analysis of the deposited data

How the results depend on the processing

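Over 21 alternatives, the median difference of the 10 pigment genes from naive stayed between -8.24 and -6.37 in Siglec-F high and between -7.17 and -6.54 in Siglec-F int (leave-one-out ranges -8.24 to -6.40 and -7.12 to -6.76), and no alternative called a pigment gene between Siglec-F high and Siglec-F int (adjusted p from 0.366 to 1). The sign of uncalled differences between these groups turned in some alternatives, and the cause was not tested: edgeR gave 0.22 for Tyrp1, 0.21 for Dct and 0.38 for Slc45a2. DESeq2 gave 0.25 for Tyrp1, 0.26 for Dct, 0.0022 for Mlana and 0.41 for Slc45a2. Without library 3 of both Siglec-F groups, an alternative chosen after seeing the data, Tyr was -0.29 and Oca2 -0.31, and 12 rather than 19 list genes were called in Siglec-F int. Leaving out single libraries gave -0.60 to 0.98 for Tyr, -2.35 to 0.33 for Tyrp1, -0.98 to 0.36 for Dct, -1.81 to 0.021 for Mlana, -2.83 to 0.54 for Slc45a2, -0.53 to 0.67 for Oca2, -2.36 to 0.011 for Slc24a5 and -0.57 to 1.57 for Trpm1.

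The labels number the libraries 1 to 3 in each group. Same-numbered Siglec-F high and Siglec-F int libraries deviated together with r = 0.123, 0.141 and 0.0718 across genes. Between unlike numbers of these groups r ran from -0.157 to -0.0105, so each Siglec-F high library correlated best with its own number. Pairs with naive libraries, which came from other mice, ran from -0.0754 to 0.0616, so the r of 0.0718 for number 3 is little above their size. Deviations from a group mean sum to 0, so positive values for same numbers in part force negative values for unlike numbers. The labels do not say that the numbers pair the samples, so the main fit took no pairing, and whether they do was not settled. The replicate block, which also grouped the naive libraries by number, gave medians of -7.19 and -6.84 and 4317, 3091 and 0 calls in the 3 comparisons. It called 0 pigment genes between Siglec-F high and Siglec-F int. A pairing of these groups alone was not fitted. Depth limits Oca2 and Gpr143, with at most 5 reads per group from tumour-injected mice. Groups of 3 libraries were too small to be examined for single deviating values.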
